A study of Mus musculus with 4 samples.

Results

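The genes described here are the glycolysis and hypoxia response genes of cultured hair follicle mesenchyme, 35 genes chosen by symbol out of 51826 in the count table. They comprise 4 glucose and lactate transporters, 17 glycolytic enzymes, 3 regulators of glycolytic flux, 2 hypoxia-inducible factors, 2 prolyl hydroxylase oxygen sensors and 7 further genes known to respond to low oxygen. All 35 were present in the table under their symbols and all 35 averaged 10 or more counts per library, the minimum set for testing.

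RNA was sequenced from mouse dermal papilla cells (DPCs), the mesenchymal cells at the base of the hair follicle, and from dermal sheath cells (DSCs), which line its outside. Both were grown in serum-containing medium from the whisker follicles of EGFP-transgenic C57BL/6J mice a few weeks old, and their genotype is given as WT in the labels. Low passage stands for passage 3 and high passage for passage 9, and no drug or oxygen treatment was named for any group. Each of the 4 groups was 1 library, so no comparison has a replicate check, and passage cannot be told apart from any difference in how or when the cultures and libraries were made.

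Glycolysis splits glucose into pyruvate in the cytosol, and lactate dehydrogenase then exchanges pyruvate for lactate, which leaves the cell through monocarboxylate transporters. When oxygen is plentiful, prolyl hydroxylases mark the hypoxia-inducible factors HIF-1α and HIF-2α for destruction, so these factors are controlled to a large part at the level of protein, which RNA does not show. When oxygen is scarce, the stabilised factors pair with ARNT, bind the core sequence ACGTG or GCGTG near their targets and raise the transcription of many glycolytic enzymes, of transporters and of their own hydroxylases.

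The libraries held between 34981284 and 47604059 counts, and the least abundant of the 35 genes, Car9, still had 22 to 49 counts in each. In the check of the labelled cell types, 6 of 11 dermal papilla markers (Sox2, Ncam1, Vcan, Rspo3, Fgf7 and Fgf10) had at least 60 counts in every library, whereas Alpl had 6 to 23, Lepr at most 18, Corin at most 10 and Prom1 at most 7. Lef1 had 508 counts in DPCs and 101 in DSCs at passage 3, and 2 and 55 at passage 9. Sox2 was higher in DPCs, at 46.01 and 40.91 CPM (counts scaled to library depth) against 7.13 and 3.91 CPM in DSCs, while Ncam1 was lower in DPCs, at 99.9 and 45.9 CPM against 312 and 342 CPM. The smooth muscle and dermal sheath marker Acta2 had at least 67135 counts in every library of either cell type. Of markers of other cells, 4 of 6 keratinocyte genes (Krt5, Krt14, Krt1 and Cdh1) and 3 of 4 melanocyte genes were at 0 in all libraries, and Cd3e of 5 immune genes was at 0. The immune genes summed to 106 and 58.5 CPM in low-passage and high-passage DPCs, and to 149.7 and 87.4 CPM in DSCs, while 4 endothelial genes summed to 0.11 to 5.51 CPM and 4 Schwann cell genes to 3.60 to 13.7 CPM. Low counts were even more often than odd, for example 1339 genes with 2 counts and 583 with 3 in low-passage DPCs, a pattern that counting of both mates of a read pair would give, so intervals below were also computed with halved counts.

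The stretches of genome upstream of 6 of the genes are shown because the expression results turn on these genes: a lactate exporter, a lactate dehydrogenase, a hypoxia-inducible factor, an oxygen sensor, a mitophagy receptor and a brake on growth signalling. Each run is the 250 bases before a RefSeq transcription start in build GRCm38.p6, written 5′ to 3′ on the strand of the gene, with capitals for the cores ACGTG and GCGTG on either strand (CACGT and CACGC are the same cores read on the other strand, and CACGTG is ACGTG matched on both). The windows are chr11:120948817-120949066 on the plus strand for Slc16a3, chr6:142507958-142508207 on the minus strand for Ldhb, chr12:73907617-73907866 on the plus strand for Hif1a, chr12:54203875-54204124 on the minus strand for Egln3, chr7:138909507-138909756 on the minus strand for Bnip3 and chr10:59951771-59952020 on the minus strand for Ddit4. The windows of Slc16a3 and Hif1a lie inside the gene's span in the count table, since RefSeq places these starts downstream of the first annotated one.
Slc16a3: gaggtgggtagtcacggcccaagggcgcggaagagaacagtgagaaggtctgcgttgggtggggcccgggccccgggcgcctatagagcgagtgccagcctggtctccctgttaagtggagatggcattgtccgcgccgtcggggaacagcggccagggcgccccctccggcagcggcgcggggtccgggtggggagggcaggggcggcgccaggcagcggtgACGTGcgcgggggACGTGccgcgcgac
Ldhb: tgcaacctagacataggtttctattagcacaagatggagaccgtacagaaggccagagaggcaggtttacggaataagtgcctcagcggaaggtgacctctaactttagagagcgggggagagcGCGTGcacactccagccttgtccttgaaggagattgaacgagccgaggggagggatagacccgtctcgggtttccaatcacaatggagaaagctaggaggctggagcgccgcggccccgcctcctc
Hif1a: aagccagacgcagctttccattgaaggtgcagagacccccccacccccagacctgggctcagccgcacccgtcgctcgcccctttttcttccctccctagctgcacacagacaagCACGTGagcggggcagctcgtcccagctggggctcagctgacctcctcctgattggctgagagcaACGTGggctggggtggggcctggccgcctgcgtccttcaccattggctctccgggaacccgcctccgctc
Egln3: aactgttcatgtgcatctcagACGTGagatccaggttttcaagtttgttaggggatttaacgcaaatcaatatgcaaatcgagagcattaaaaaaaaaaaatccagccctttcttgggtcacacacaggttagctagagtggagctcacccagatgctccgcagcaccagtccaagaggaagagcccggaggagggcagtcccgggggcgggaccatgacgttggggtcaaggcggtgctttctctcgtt
Bnip3: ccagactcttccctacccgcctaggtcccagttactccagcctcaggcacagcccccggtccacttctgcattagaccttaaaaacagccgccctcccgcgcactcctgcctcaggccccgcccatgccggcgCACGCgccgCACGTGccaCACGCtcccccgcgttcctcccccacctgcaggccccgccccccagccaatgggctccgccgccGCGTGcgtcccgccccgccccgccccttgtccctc
Ddit4: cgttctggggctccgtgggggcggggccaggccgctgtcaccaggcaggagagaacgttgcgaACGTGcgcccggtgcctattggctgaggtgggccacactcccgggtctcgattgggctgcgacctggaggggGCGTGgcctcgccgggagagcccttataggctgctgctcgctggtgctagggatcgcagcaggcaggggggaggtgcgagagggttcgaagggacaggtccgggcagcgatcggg

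The Bnip3 window held 5 matches, that of Hif1a 3, those of Slc16a3 and Ddit4 2 each, and those of Ldhb and Egln3 1 each. The match nearest to the start lay 14 bases before it for Slc16a3 and 229 bases before it for Egln3. RefSeq windows were found for 32 of the 35 genes, 45 windows in all, and none was found for Slc2a3, Epas1 or Ndrg1. At least 1 core was present in 37 of the 45 windows (82.2%), against 38.6% of 32851 windows of the same length over all genes. The windows of these genes were also richer in G and C, with a median of 61.6% against 52.4%. Of all windows at or above 61.6%, 64.9% held a core. That set had a median of 68.0% G and C, so it was not matched to the windows of these genes. ACGTG alone was in 48.9% of the windows of these genes and in 22.9% of the G and C rich windows, while GCGTG was in 55.6% and 55.3%. Gpi1, Tpi1 and Eno2 had a window with neither core. These are matches of letters, and no binding was measured.

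The first comparison asked how these genes differed between low and high passage in each cell type. In DPCs most of them were lower at high passage, with Ndrg1, the lactate transporter Slc16a3 and the oxygen sensor Egln3 lowest, while Hif1a was 4.13-fold higher. In DSCs the same list lay slightly above its starting level, with Ldhb, Adm, Pfkfb3, Bnip3 and Hif1a 2.03-fold to 2.41-fold higher. Differences are given on the log2 CPM scale as passage 9 over passage 3, and a gene is said to have risen or fallen where the 2 libraries differed at least 2-fold. Intervals are 95% exact Clopper-Pearson intervals for counting error only, which compare 2 libraries and not 2 conditions. In such bulk samples fewer cells of a type and less RNA per cell cannot be told apart.

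The median log2 difference of the 35 genes was -0.43 in DPCs and 0.24 in DSCs, against -0.00 for all 16734 genes tested in each cell type. In DPCs, 1 gene rose, with 15.5% of all genes at least 2-fold higher, and 12 fell (34.3%), with 15.8% of all genes at least 2-fold lower. At the study's 4-fold threshold, 1 gene was higher in DPCs, against 5.36% of all genes, and 3 were lower (8.57%), against 4.57%. In DSCs, 5 genes rose (14.3%), with 8.47% of all genes at least 2-fold higher, and 2 fell (5.71%), with 6.27% of all genes at least 2-fold lower. None of the 35 passed 4-fold in DSCs, where 2.67% of all genes were higher and 1.17% lower by that much. The plot of all genes shows the list to the left of the bulk in DPCs and slightly to its right in DSCs.

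**Figure D1:**
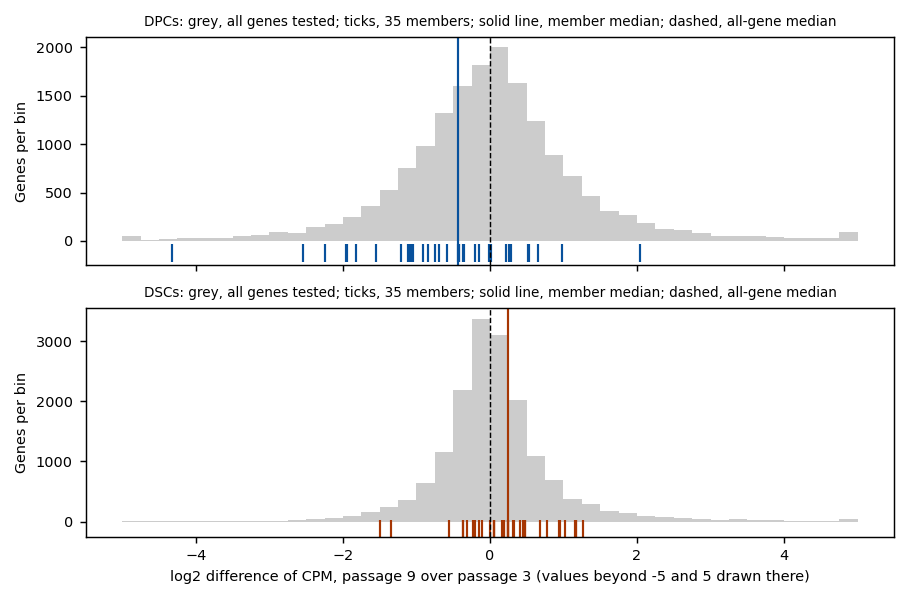
Histograms of the log2 difference of CPM between passage 9 and passage 3 (x axis) for the genes tested (y axis, genes per bin of 0.25), in DPCs above and DSCs below, with ticks for the 35 glycolysis and hypoxia genes. The median of the 35 genes, the solid line, lay at -0.43 in DPCs and 0.24 in DSCs, while the median of all genes, the dashed line, lay at -0.00 in each.

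Gene by gene, 32 of the 35 (91.4%) had a lower passage difference in DPCs than in DSCs, against 52.2% of all genes. The exceptions were Pfkp, Eno2 and Hif1a. The signs were opposite for 16 of the 35 (45.7%), against 29.4% of all genes. Hif1a rose in both cell types (2.86% of the list, against 4.77% of all genes) and Slc16a1 and Ndrg1 fell in both (5.71%, against 3.61%), shares near those of all genes. No gene of the list moved 2-fold in opposite directions. Other abundant transcripts also differed between the DPC libraries: the 6 dermal sheath and smooth muscle markers summed to 9855 CPM at low and 3484 CPM at high passage in DPCs, and to 7771 and 6959 CPM in DSCs. Acta2 made up most of each sum, and the markers did not move as 1 set. Itga8 was higher at high passage, from 187.6 to 952.5 CPM in DPCs and from 44.4 to 511.3 CPM in DSCs. Myh11, Cnn1 and Mylk were lower at high passage in DPCs and higher in DSCs. The 7 fibroblast markers summed to 16470 and 6237 CPM in DPCs and to 25430 and 22580 CPM in DSCs. Col1a1 and Col1a2 made up most of each sum, and they, like Vim, were lower at high passage in both cell types. Pdgfra was higher, from 306.5 to 798.3 CPM in DPCs and from 121.8 to 266.4 CPM in DSCs, and so was Dcn, from 117.6 to 150.8 and from 87.3 to 1966 CPM. Thy1 and Lum were lower in DPCs and higher in DSCs. Whether these shifts, or those of the immune, endothelial and Schwann cell genes, had a part in the differences of the glycolysis and hypoxia genes was not tested.

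**Figure D2:**
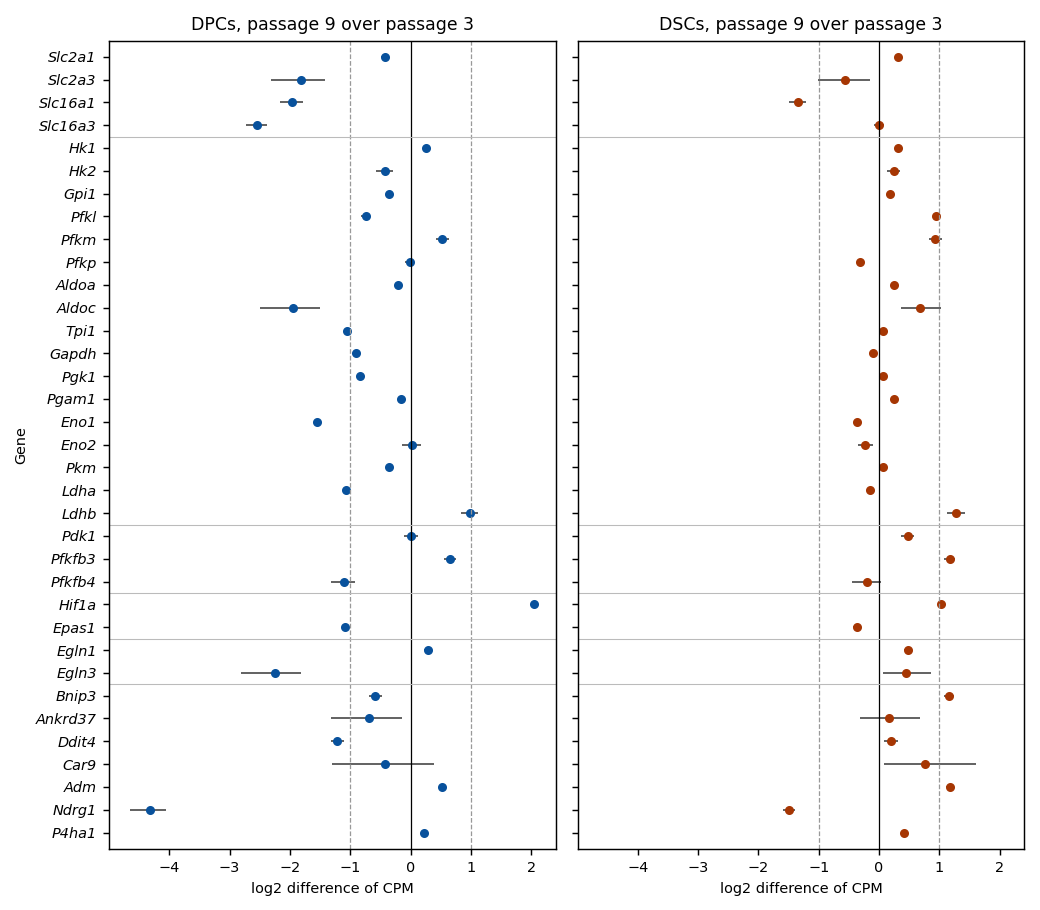
Log2 difference of CPM between passage 9 and passage 3 (x axis) for each of the 35 genes (y axis, grouped by role from transporters at the top to hypoxia targets at the bottom), in DPCs on the left and DSCs on the right. Points are the values of 1 pair of libraries, bars are 95% counting intervals, and dashed lines mark 2-fold: Ndrg1 reached -4.32 and Hif1a 2.05 in DPCs, while all DSC values lay between -1.50 and 1.27.

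Of the transporters, 3 of 4 fell in DPCs, with 15.8% of all genes lower, and 1 of 4 fell in DSCs, with 6.27% lower. Slc16a3 (chr11:120948480-120960868, plus strand, build GRCm38), which encodes MCT4, the exporter of lactate typical of glycolytic cells, stood at 54.0 CPM at passage 3 and 9.22 CPM at passage 9 in DPCs, and at 59.6 and 59.5 CPM in DSCs. It fell 5.83-fold in DPCs (log2 -2.54, interval -2.72 to -2.38) and differed by -0.00 in DSCs (interval -0.08 to 0.08). High-passage DPCs were thus the 1 low library of the 4 for this gene.

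Slc16a1 (chr3:104638668-104658462, plus strand), which encodes MCT1, a carrier of lactate and pyruvate in both directions, was lower at high passage in both cell types. Its CPM was 30.5 and 7.79 in low-passage and high-passage DPCs and 37.0 and 14.5 in DSCs, so that it fell by 1.96 on the log2 scale in DPCs (interval -2.16 to -1.78) and by 1.35 in DSCs (interval -1.48 to -1.21). Both high-passage libraries lay below both low-passage libraries. Slc2a3, which encodes the high-affinity glucose transporter GLUT3, had 196 and 54 counts in DPCs, a fall of 1.82 on the log2 scale (interval -2.32 to -1.42), and 105 and 85 counts in DSCs, a difference of -0.56. Slc2a1, which encodes the widely used glucose transporter GLUT1, stayed within 2-fold, at 133 and 98.6 CPM in DPCs and 116 and 145 CPM in DSCs.

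Together the 17 glycolytic enzyme genes summed to 6742 CPM in low-passage and 4406 CPM in high-passage DPCs, a ratio of 0.654, and to 6261 and 6406 CPM in DSCs, a ratio of 1.02. Their median log2 difference was -0.36 in DPCs, where 4 of 17 fell and none rose, and 0.18 in DSCs, where 1 of 17 rose and none fell. The 4 were 23.5%, with 15.8% of all genes lower and 15.5% higher in DPCs. The 1 was 5.88%, with 8.47% of all genes higher and 6.27% lower in DSCs. Per length, Pkm, the pyruvate kinase gene, had the highest FPKM (fragments scaled to transcript length and library depth) of the enzymes in every library, at 791 and 646 in DPCs of low and high passage and at 638 and 684 in DSCs. Aldoc, a brain-type aldolase, had the lowest FPKM of the enzymes in every library, between 0.528 and 1.97.

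**Figure D3:**
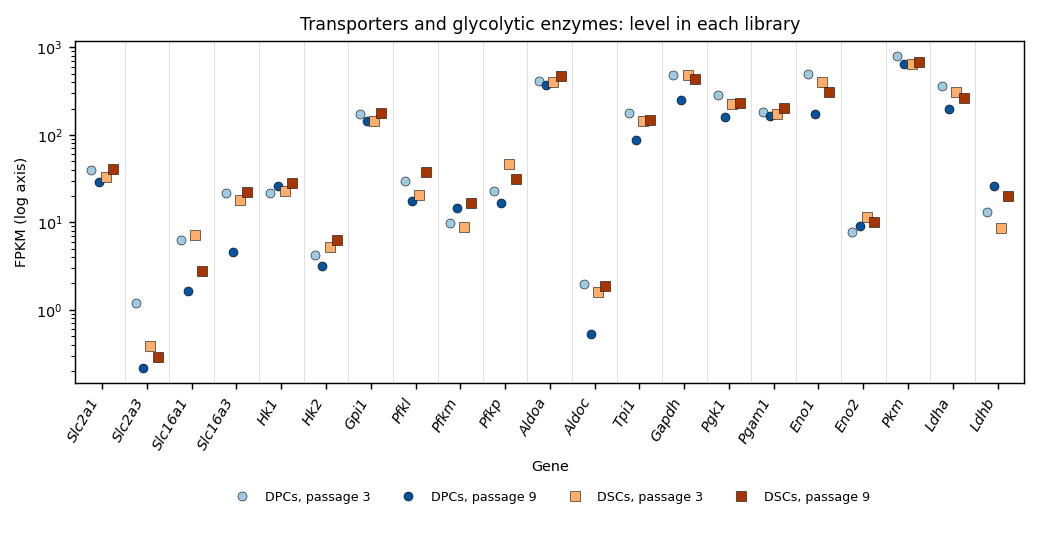
FPKM (y axis, log scale) of the 4 transporter genes and 17 glycolytic enzyme genes (x axis, in pathway order) in each of the 4 libraries, 1 point per library. The high-passage DPC library, dark circles, was the lowest for Slc16a3 at 4.58 FPKM, for Aldoc at 0.528 FPKM and for Eno1 at 175 FPKM.

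None of the genes for the steps from glucose to fructose bisphosphate passed 2-fold with passage. Of the hexokinases, which trap glucose in the cell, Hk1 was at 0.26 in DPCs and 0.32 in DSCs and Hk2 at -0.43 and 0.24 on the log2 scale, and the isomerase gene Gpi1 was at -0.36 and 0.18. Of the phosphofructokinases, which catalyse the committed step, the liver-type gene Pfkl (chr10:77986947-78010083, minus strand) stood at 112 and 66.7 CPM in low-passage and high-passage DPCs and at 78.6 and 152 CPM in DSCs. Its log2 differences were -0.74 (interval -0.82 to -0.67) in DPCs and 0.95 (interval 0.89 to 1.01) in DSCs. The muscle-type gene Pfkm was at 0.53 and 0.93 and the platelet-type gene Pfkp at -0.02 and -0.31.

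Below that step, Aldoc fell 3.86-fold in DPCs, from 175 to 44 counts (log2 -1.95, interval -2.50 to -1.51), and had 115 and 224 counts in DSCs (log2 0.68, interval 0.36 to 1.03). The main aldolase Aldoa, with 374 to 465 FPKM in the libraries, was at -0.21 in DPCs and 0.25 in DSCs. Tpi1, which interconverts the triose phosphates, had 310 and 149.6 CPM in DPCs, a fall of 1.05 on the log2 scale that came to -0.98 under upper-quartile scaling, and 263 and 274 CPM in DSCs.

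Eno1 (chr4:150236721-150248879, plus strand), the ubiquitous enolase, fell 2.93-fold in DPCs, from 1052 to 359 CPM (log2 -1.55, interval -1.58 to -1.52), and went from 891 to 688 CPM in DSCs (log2 -0.37, interval -0.40 to -0.35). Gapdh, the triose phosphate dehydrogenase often used as a reference gene for PCR, was at 658 and 349.5 CPM in DPCs and 688 and 639 CPM in DSCs, log2 differences of -0.91 and -0.11. Pgk1, the first of the enzymes that make ATP, was at -0.84 in DPCs and 0.06 in DSCs, whereas Pgam1 was at -0.15 and 0.24, Eno2, the neuronal enolase, at 0.02 and -0.23, and Pkm at -0.36 and 0.06. Neighbouring steps of the lower pathway therefore differed in size within DPCs, from -1.55 for Eno1 to -0.15 for Pgam1. Of 35 genes, 9 shared at least 10% of their 50-base windows with other annotated genes, among them Pgk1 with 53.9%, Pgam1 with 36.2%, Eno1 with 26.0%, Pkm with 25.8% and Gapdh with 25.1%, so their counts may be divided with or shared by copies. The copy that shared most with Eno1, Eno1b, had 3445 and 1345 counts in DPCs and 2977 and 2458 in DSCs, and that of Gapdh, Gm7336, had 3646 and 1969 in DPCs and 3257 and 3466 in DSCs.

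The lactate dehydrogenase genes had passage differences of opposite sign in both cell types. Ldha (chr7:46841475-46855627, plus strand), whose subunit favours the making of lactate, was at 597 and 282 CPM in low-passage and high-passage DPCs and at 554 and 499 CPM in DSCs. It fell by 1.08 on the log2 scale in DPCs (interval -1.11 to -1.05) and was at -0.15 in DSCs. In the deposited FPKM, where it stood at 365 and 199.7 in DPCs, the DPC difference was -0.87 and no longer past 2-fold. Ldhb (chr6:142490249-142507957, minus strand), whose subunit favours the use of lactate, was at 17.2 and 33.9 CPM in DPCs, a log2 difference of 0.98 (interval 0.84 to 1.12), and rose 2.41-fold in DSCs, from 12.6 to 30.4 CPM (log2 1.27, interval 1.12 to 1.43). Both high-passage libraries lay above both low-passage libraries for Ldhb.

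Within a library the ratio of related genes does not depend on how libraries are scaled. The ratio of Ldhb to Ldha in FPKM was 0.0356 and 0.132 in low-passage and high-passage DPCs and 0.028 and 0.0764 in DSCs. By counts it was 4.17-fold higher at high passage in DPCs (log2 2.06, interval 1.92 to 2.20) and 2.68-fold higher in DSCs (log2 1.42, interval 1.27 to 1.58), although Ldha had the higher FPKM in each library. The ratio of Eno2 to Eno1 was 2.96-fold higher in DPCs (log2 1.57) and differed by 0.15 in DSCs. Pfkm relative to Pfkl was 2.41-fold higher in DPCs (log2 1.27) and differed by -0.02 in DSCs. Pfkp relative to Pfkl went the other way in DSCs, 2.40-fold lower (log2 -1.26), and was at 0.73 in DPCs.

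The ratio of Slc16a3 to Slc16a1 was 2.54-fold higher in DSCs (log2 1.35, interval 1.19 to 1.50) and was at -0.58 in DPCs. Slc2a3 relative to Slc2a1 was lower by log2 -1.43 in DPCs and -0.89 in DSCs. Aldoc relative to Aldoa was 3.44-fold lower in DPCs (log2 -1.78), and was at 0.44 in DSCs by counts and 0.01 by FPKM. The ratio of Hk2 to Hk1 stayed within 2-fold in both, at -0.69 and -0.08. The plot of gene pairs by library shows the pairs in which both cell types went the same way, the lactate dehydrogenases among them, beside those in which they did not.

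**Figure D4:**
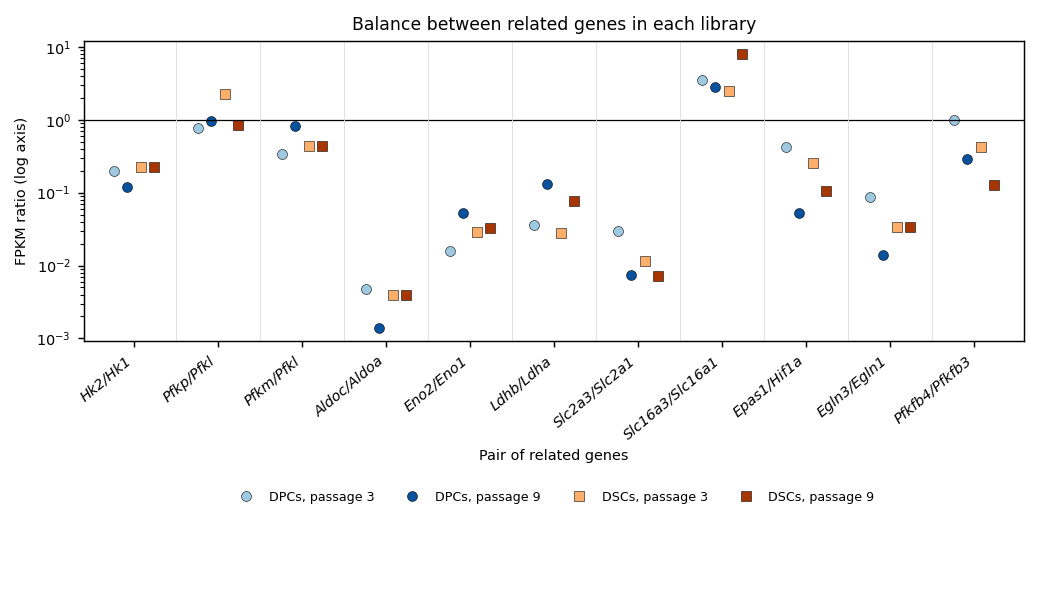
Ratio of the FPKM of related genes (y axis, log scale, with a line at 1) for 11 pairs (x axis) in each of the 4 libraries, 1 point per library. The ratio of Ldhb to Ldha was higher at high passage in both cell types, and the ratio of Epas1 to Hif1a was lower, from 0.423 to 0.0526 in DPCs and from 0.252 to 0.107 in DSCs.

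Of the flux regulators, Pfkfb3 and Pfkfb4 make fructose 2,6-bisphosphate, the activator of phosphofructokinase. Pfkfb3 (chr2:11471433-11554077, minus strand) was at 34.8 and 54.8 CPM in low-passage and high-passage DPCs and at 35.2 and 79.5 CPM in DSCs. It rose 2.25-fold in DSCs (log2 1.17, interval 1.08 to 1.26) and was at 0.65 in DPCs (interval 0.55 to 0.76), with both high-passage libraries above both low-passage ones. Pfkfb4 was at 17.4 and 8.01 CPM in DPCs, a fall of 1.11 on the log2 scale (interval -1.32 to -0.91), and at 7.74 and 6.70 CPM in DSCs (log2 -0.21, interval -0.45 to 0.03). The ratio of Pfkfb4 to Pfkfb3 was 3.41-fold lower in DPCs (log2 -1.77) and 2.61-fold lower in DSCs (log2 -1.38). Pdk1, the kinase that keeps pyruvate out of the citric acid cycle, was at 0.01 in DPCs and 0.48 in DSCs.

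The hypoxia-inducible factor genes also had passage differences of opposite sign in both cell types. Hif1a (chr12:73901375-73947530, plus strand), which encodes HIF-1α, was at 335 CPM at passage 3 and 1384 CPM at passage 9 in DPCs, and at 319 and 646 CPM in DSCs. It rose 4.13-fold in DPCs (log2 2.05, interval 2.02 to 2.07) and 2.03-fold in DSCs (log2 1.02, interval 0.99 to 1.05). The low-passage libraries lay within 1.05-fold of each other and below both high-passage libraries. The DSC value sat at the 2-fold limit, at 1.00 with total-count scaling and 0.85 in the deposited FPKM.

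Epas1 (chr17:86753907-86833410, plus strand), which encodes HIF-2α, was at 180.5 and 85.3 CPM in low-passage and high-passage DPCs and 106 and 82.2 CPM in DSCs. It fell 2.12-fold in DPCs (log2 -1.08, interval -1.14 to -1.02) and was at -0.37 in DSCs (interval -0.43 to -0.30). By counts, the ratio of Epas1 to Hif1a was 8.74-fold lower at high passage in DPCs (log2 -3.13, interval -3.20 to -3.06) and 2.62-fold lower in DSCs (log2 -1.39, interval -1.46 to -1.32).

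Of the oxygen sensors, Egln1, which encodes PHD2, the main hydroxylase of HIF-1α, stayed within 2-fold, at 0.29 in DPCs and 0.48 in DSCs. Egln3 (chr12:54178981-54203860, minus strand), which encodes PHD3 and is itself a target of the factors, had 206 counts at passage 3 and 42 at passage 9 in DPCs, and 86 and 143 in DSCs. It fell 4.74-fold in DPCs (log2 -2.24, interval -2.81 to -1.81) and was at 0.45 in DSCs (interval 0.07 to 0.87). With halved counts the DSC interval included 0, while the DPC interval did not. By counts, the ratio of Egln3 to Egln1 was 6.01-fold lower at high passage in DPCs (log2 -2.59, interval -3.07 to -2.10) and differed by -0.02 in DSCs (interval -0.41 to 0.37).

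The 7 hypoxia response targets summed to almost the same CPM in both DPC libraries, 571.7 and 572.5, and to 565.2 and 796.8 in DSCs, yet single genes differed widely. Ndrg1 (chr15:66929321-66969640, minus strand), a gene of stress and differentiation known to respond to oxygen and to iron loss, had the lowest passage difference of the 35 genes in both cell types. It was at 54.2 and 2.66 CPM in low-passage and high-passage DPCs and at 72.3 and 25.6 CPM in DSCs. It fell 20.0-fold in DPCs, from 1976 to 97 counts (log2 -4.32, interval -4.66 to -4.05), and 2.82-fold in DSCs (log2 -1.50, interval -1.60 to -1.40).

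Ddit4, which encodes REDD1, a brake on mTORC1, was at 64.2 and 27.7 CPM in DPCs and 28.7 and 32.9 CPM in DSCs. It fell by 1.21 on the log2 scale in DPCs (interval -1.32 to -1.11) and was at 0.20 in DSCs (interval 0.08 to 0.31). The low-passage DPC library was thus the 1 high library for this gene, with the other 3 close together. Bnip3, a mitophagy receptor, was at 51.6 and 34.4 CPM in DPCs (log2 -0.59, interval -0.69 to -0.48) and rose 2.24-fold in DSCs, from 45.9 to 103 CPM (log2 1.16, interval 1.08 to 1.24). Bnip3 shared 47.2% of its windows with other annotated genes, so its count is less certain.

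Adm, which encodes the vasodilator peptide adrenomedullin, rose 2.26-fold in DSCs, from 84.05 to 189.9 CPM (log2 1.18, interval 1.12 to 1.23), and was at 154 and 220.2 CPM in DPCs (log2 0.52, interval 0.47 to 0.57). P4ha1, a subunit of the collagen prolyl hydroxylase, was at 0.22 in DPCs and 0.42 in DSCs. Ankrd37, a known target of HIF-1, had 66 and 40 counts in DPCs and 61 and 83 in DSCs. Car9, the carbonic anhydrase often used as a marker of hypoxic cells, had 30 and 22 counts in DPCs and 23 and 49 in DSCs. At this depth the DPC difference of Car9, -0.42, could not be told from 0 (interval -1.31 to 0.39), and the same held for Ankrd37 in DSCs, at 0.17 (interval -0.32 to 0.67). Neither Car9 nor Ankrd37 passed 2-fold in either cell type.

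**Figure D5:**
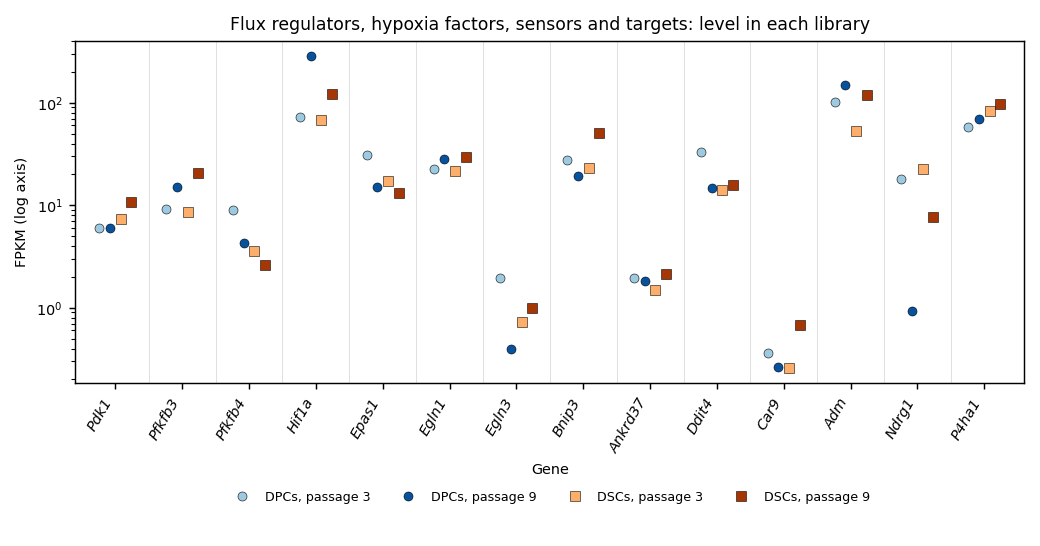
FPKM (y axis, log scale) of the 3 flux regulators, 2 hypoxia-inducible factors, 2 oxygen sensors and 7 hypoxia targets (x axis) in each of the 4 libraries, 1 point per library. Hif1a was highest in high-passage DPCs at 284 FPKM, the library in which Ndrg1 was lowest at 0.920 FPKM and Egln3 at 0.394 FPKM.

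Over the whole list, the counting interval of the passage difference excluded 0 for 31 of 35 genes in DPCs and for 32 of 35 in DSCs, and with halved counts for 30 and 29. Counting error was thus small beside most of these differences, whereas the spread between cultures was not measured. The share of all genes whose interval excluded 0 was not counted, so these counts say nothing particular to the list.

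The second comparison set DPCs against DSCs at each passage, from the same 4 libraries, so its values are not independent of those above. At low passage the cell types were close for these genes, with a median of 0.11 for DPCs over DSCs, against 0.01 for all genes. By the deposited FPKM the median of these genes was 0.26. Egln3 was 2.45-fold higher in DPCs (log2 1.29, interval 0.94 to 1.69), Pfkfb4 2.24-fold higher (log2 1.16) and Ddit4 2.23-fold higher (log2 1.16), which made 3 genes at least 2-fold higher, with 5.5% of all genes called. Pfkp was 2.11-fold lower in DPCs (log2 -1.08, interval -1.15 to -1.01) and the 1 gene at least 2-fold lower, with 7.83% of all genes called. With total-count scaling Pfkp came to -0.99.

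At high passage the median was -0.55, against -0.04 for all genes, and 30 of the 35 genes (85.7%) were lower in DPCs, against 52.6% of all genes. Those at least 2-fold lower were 7 (20.0%), with 11.3% of all genes called, and those at least 2-fold higher were 1, with 8.87% of all genes called. The 7 were Ndrg1, 9.45-fold lower (log2 -3.24, interval -3.58 to -2.96), Slc16a3, 6.42-fold lower (log2 -2.68, interval -2.86 to -2.53), Aldoc (log2 -1.98), Bnip3 (log2 -1.58), Egln3 (log2 -1.41), Pfkl (log2 -1.19) and Hk2 (log2 -1.06). Hk2 came to values between -0.99 and -0.94 with total-count scaling, upper-quartile scaling and the deposited FPKM. Hif1a was 2.14-fold higher in DPCs (log2 1.10, interval 1.08 to 1.12). Total-count scaling moved the median of all genes in this comparison by 0.12.

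An additive model over the 4 libraries, with cell type and passage, was fitted to all 16734 genes. Its single residual degree of freedom measures how far DPCs and DSCs differed in their response and not the spread between cultures. None of the 35 genes was called for passage by edgeR's quasi-likelihood test with Benjamini-Hochberg adjustment, and neither was any other gene (0.0% in each direction). The smallest adjusted p of the list by that edgeR test was 0.169, for Slc16a1. At an unadjusted p under 0.05 the edgeR test gave 5 genes higher, Pfkm, Ldhb, Pfkfb3, Hif1a and Adm, and 3 lower, Slc16a1, Epas1 and Ndrg1, with 8.81% of all genes called higher and 8.23% called lower. DESeq2's Wald test called 4 genes, with adjusted p of 8.1e-05 for Ndrg1, 0.000786 for Hif1a, 0.00119 for Slc16a1 and 0.0272 for Ldhb, and called 3.03% of all genes higher and 2.73% lower. All 4 had differences of the same sign in both cell types. For cell type, edgeR's quasi-likelihood test called none of the 35, with a smallest adjusted p of 0.294 for Pfkp and 2 genes, Hk2 and Pfkp, both lower in DPCs, at an unadjusted p under 0.05. Of all genes that test called 0.00598% higher and 0.0239% lower after adjustment, and 3.06% and 5.26% before it. DESeq2 called none of the 35 for cell type, and 1.06% of all genes higher and 1.89% lower.

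Other genes of the same pathways were taken from a list of 79, of which 78 were found by symbol and 72 passed the filter. Of 22 other glycolysis genes, 2 rose and 5 fell in DPCs and 1 rose and 1 fell in DSCs, with medians of -0.27 and -0.02. Of 7 pentose phosphate genes, 2 fell in DPCs and 1 in DSCs and none rose, with medians of -0.45 and -0.43. Of 43 other hypoxia genes, 8 rose and 10 fell in DPCs and 7 rose and 1 fell in DSCs, with medians of -0.29 and 0.13. Of all genes, 15.5% rose and 15.8% fell in DPCs, where the 43 hypoxia genes had 18.6% and 23.3% and the 22 glycolysis genes 9.09% and 22.7%, and 8.47% rose and 6.27% fell in DSCs. In DPCs, 15 of the 22 glycolysis genes, 6 of the 7 pentose phosphate genes and 29 of the 43 hypoxia genes were below 0 (68.2%, 85.7% and 67.4%), against 8374 of all 16734 genes.

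The largest rises shared by both cell types in that wider list were larger than any of the 35 genes showed. Stc1, which encodes the secreted glycoprotein stanniocalcin 1, had 203 counts at passage 3 and 9688 at passage 9 in DPCs, and 22 and 583 in DSCs, log2 differences of 5.56 (interval 5.38 to 5.78) and 4.34 (interval 3.84 to 5.14). Its paralog Stc2 rose by log2 4.33 and 1.80. Ppp1r3c, a glycogen targeting subunit of protein phosphatase, rose by log2 2.68 and 2.92, with 9 and 68 counts in DPCs and 4 and 52 counts in DSCs. The falls shared by both were Tfrc, the transferrin receptor, at log2 -2.82 and -1.35, and Slc2a6, a lysosomal hexose transporter, at log2 -2.27 and -1.11. Of the 72 genes 5 rose in both cell types (6.94%, against 4.77% of all genes tested) and 2 fell in both (2.78%, against 3.61%).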

How the data were processed

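RNA-seq libraries of DPCs and DSCs at passage 3 and passage 9 (1 per group, grouped by the labels) were analysed. The authors deposited 1 table of raw counts covering every library, and, per library, FPKM values, which the authors had scaled to transcript length and to library depth. The submitters' processing notes name Bowtie 0.12.2 and the builds mm8 and mm9 without a role, while positions of 94.1% of the matched genes equal those of GENCODE M21 on GRCm38. The counting program and its use of strand are not given in the sources used here; 3 of the 35 genes overlap an exon on the same strand and 13 one on the opposite strand.

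Counts were scaled by TMM (R 4.3.3, edgeR 4.0.16, limma 3.58.1) and genes averaging 10 or more raw counts were kept. Log2 CPM used a prior count of 2. With 1 library per group no test exists for a single comparison, so genes were called at 2-fold, and 4-fold, the study's threshold, was counted beside it. Total counts were 35340038 and 34981284 in DPCs and 38780425 and 47604059 in DSCs at passage 3 and 9, and intervals (95%, exact Clopper-Pearson) cover counting error only. The additive model used edgeR's quasi-likelihood test, with DESeq2 1.42.0 as alternative. Both were run on simulated counts in which the cell types shared each passage effect, so that run does not speak for genes that differ between them. Alternatives were other scalings, filters, prior counts (0.5 and 10), halved counts and log2(FPKM + 0.1). Shared sequence was counted in 50-base windows of annotated transcripts. Promoter windows came from RefSeq, GRCm38.p6.

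All 35 genes are reported by role. From the wider list, up to 3 largest rises and 3 largest falls were named among genes moving at least 2-fold the same way in DPCs and DSCs, ordered by the lesser change. The 35 genes and all lists were chosen with earlier results of these data known.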

Additional observations from a re-analysis of the deposited data

Results flagged for a closer look

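For 13 of the 35 genes the passage difference had opposite signs in DPCs and DSCs with counting intervals on either side of 0. The differences between the cell types were not tested, since each rests on 1 library per group. Given as the DPC value minus the DSC value on the log2 scale, they were -2.70 for Egln3, -2.63 for Aldoc, -1.75 for Bnip3, -1.69 for Pfkl, -1.41 for Ddit4, -1.11 for Tpi1, -0.90 for Pgk1, -0.74 for Slc2a1, -0.67 for Hk2, -0.54 for Gpi1, -0.46 for Aldoa, -0.42 for Pkm and -0.40 for Pgam1. In each of the 13 the DPC value was the negative one. With halved counts the DSC interval of Egln3 included 0, and the DSC values of Tpi1, Pgk1 and Pkm were only 0.06. The share of all genes that meet this rule was not counted, while 29.4% of all genes had opposite signs without regard to intervals. The median of the 35 genes likewise had opposite signs, -0.43 and 0.24, a difference of -0.67.

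Of 11 ratios between related genes, 3 moved in opposite directions in the 2 cell types, again without a test. The difference, DPCs minus DSCs, was 1.99 for the ratio of Pfkp to Pfkl, -2.23 for Aldoc to Aldoa and -1.93 for Slc16a3 to Slc16a1. For Aldoc to Aldoa the DSC side is uncertain, since its interval included 0 with halved counts and its value was 0.01 by FPKM. Pfkm to Pfkl also had opposite signs, 1.27 in DPCs and -0.02 in DSCs, but its DSC interval included 0.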

How the results depend on the processing

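For 32 gene values past 2-fold there were 256 values under other scalings, filters, prior counts or the deposited FPKM. Of the 256, 9 came under 2-fold: Tpi1, Ldha and Hif1a with passage, and Pfkp and Hk2 between cell types. None changed sign, but most of these settings could not have changed one. The filters left the value of each gene as it was, and the scalings shifted all genes of a comparison alike by a small amount. The number of genes that rose in DPCs was 1, and 2 with upper-quartile scaling and with the deposited FPKM, where Ldhb came to 1.05 and 1.01. The number lower in DPCs than DSCs at low passage was 1, and 0 with total counts and with FPKM. The median for DPCs over DSCs was 0.26 by FPKM at low passage, and -0.43 with total counts and -0.45 by FPKM at high passage, where both also moved the median of all genes by 0.12. DESeq2's Wald test called 4 genes for passage, against 0 by edgeR.

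By FPKM, the passage difference of related-gene ratios came to 0.28 in DPCs and -1.43 in DSCs for Pfkp to Pfkl, 0.0107 in DSCs for Aldoc to Aldoa, 1.75 in DPCs for Eno2 to Eno1, 1.89 in DPCs for Ldhb to Ldha and -2.003 in DPCs for Slc2a3 to Slc2a1. It came to -0.31 and 1.67 in DPCs and DSCs for Slc16a3 to Slc16a1, -3.01 and -1.24 for Epas1 to Hif1a, and -1.70 in DSCs for Pfkfb4 to Pfkfb3. With halved counts the DSC intervals of Aldoc to Aldoa (0.44) and of Eno2 to Eno1 (0.15) included 0. The causes were not tested.

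Each group has 1 library, so there were no numbered replicates to pair or to leave out. The additive model compares the passages within each cell type. Depth limits Car9 and Ankrd37, which had 22 to 83 counts.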
